A study of Rattus norvegicus with 6 samples.

Results

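Genes of the Fraser complex and of the nephronectin receptor were examined in glomerular isolates of adult male Sprague-Dawley rats. The genes considered were Fras1, Frem1, Frem2, Grip1, Npnt and Itga8, and a gene was taken as its probeset with 1 gene symbol and the highest mean over the arrays. Of these 6 genes, 2 were matched to a probeset, Fras1 and Grip1, out of 14506 genes measured, and the other 4 were not analysed here. The results therefore concern a matrix protein of the complex and its intracellular adaptor, and neither nephronectin nor its integrin alpha8 receptor chain. RNA was hybridized to 6 whole-transcript arrays, 3 of PEC-enriched isolates (capsulated glomeruli, retained on the 90 µm sieve, with the parietal epithelial cells, or PECs, that line Bowman's capsule) and 3 of PEC-deprived isolates (decapsulated glomeruli, collected on the 75 µm sieve). All rats were uninjured, no cells were cultured, and neither isolate is a pure cell population. The study counted decapsulated glomeruli among those of the 90 µm sieve, and tubular fragments in preparations from both sieves. The methods name 3 animals and do not say whether an animal gave both isolates or whether the replicate number marks an animal.

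The Fraser complex is an assembly of very large extracellular proteins, FRAS1 and its relatives FREM1 and FREM2, that are deposited beneath epithelia and fasten them to the underlying mesenchyme. GRIP1, a cytoplasmic scaffold with several PDZ domains, carries FRAS1 and FREM2 to the basal cell surface. In mice and humans, loss of Fras1 or Grip1 causes Fraser syndrome, in which kidneys often fail to form. The complex holds nephronectin in the basement membrane of the ureteric bud, where integrin alpha8 beta1 on the neighbouring mesenchyme binds it through an RGD motif. In the mouse embryo this contact sustains the expression of Gdnf, the growth factor that signals through the receptor RET to make the bud branch.

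The promoter windows of both measured genes are shown because the genes differed in how far the isolates stood apart. Each window runs from 250 bases before to 50 bases after the start that the RefSeq table gives, 5′ to 3′ on the strand of the gene, on the GRCr8 assembly, and capitals mark CpG dinucleotides. Both of the 2 genes were found in that table. The Fras1 window lies on the minus strand at chr14:13504615-13504914 and holds 14 CpG dinucleotides, and that of Grip1 lies on the plus strand at chr7:57197602-57197901 and holds 6. The Grip1 window lies inside the span annotated for the gene. The median over 33469 promoter windows of this length was 7 CpG dinucleotides.
Fras1: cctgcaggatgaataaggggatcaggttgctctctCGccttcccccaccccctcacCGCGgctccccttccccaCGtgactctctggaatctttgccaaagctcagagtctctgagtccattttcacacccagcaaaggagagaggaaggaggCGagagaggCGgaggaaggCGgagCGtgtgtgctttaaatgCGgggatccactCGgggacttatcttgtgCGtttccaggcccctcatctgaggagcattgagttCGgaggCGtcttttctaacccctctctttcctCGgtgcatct
Grip1: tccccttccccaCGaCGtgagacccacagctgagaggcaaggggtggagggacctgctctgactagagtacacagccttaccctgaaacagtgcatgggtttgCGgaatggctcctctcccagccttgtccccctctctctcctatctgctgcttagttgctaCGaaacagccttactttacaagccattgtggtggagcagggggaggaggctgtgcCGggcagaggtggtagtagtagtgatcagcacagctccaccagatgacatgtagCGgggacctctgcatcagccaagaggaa
Both windows have a GC content of 57.0%. On either strand, neither holds a GC box (GGGCGG, found in 33.1% of all windows), a TATA box (TATAAA, 14.2%) or the HNF1 half-site GTTAAT (7.45%). A match or its absence is a description of these letters only.

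Fras1 separated the isolates, and its PEC-enriched values were all the higher ones. Its log2 expression values were 8.11, 8.67 and 8.15 on the PEC-enriched arrays, against 7.11, 6.31 and 6.66 on the PEC-deprived arrays. The gap between the groups was 1.0, between the nearest arrays, PEC-enriched replicate 1 and PEC-deprived replicate 1. The means were 8.31 ± 0.312 in PEC-enriched isolates and 6.69 ± 0.401 in PEC-deprived isolates (n = 3 arrays each, SD), which makes a log2 fold change of 1.62 or 3.07-fold (standard error 0.222, 95% interval 1.11 to 2.13). The difference was thus several times the spread between replicates. When all 29215 probesets were fitted with limma, it missed the threshold of the methods, which is an adjusted p under 0.01 (adjusted p = 0.152, unadjusted p = 7.94e-05). An exact permutation test, two-sided, gave p = 0.1, and 3 arrays against 3 cannot give less. No probeset passed in limma (0%), while 1687 higher (5.77%) and 1361 lower (4.66%) had an unadjusted p under 0.05.

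The call on Fras1 turned on the test used and on its prior weight. The methods of the study name Bayesian modeling, read here as a regularised test that shrinks the variance of a group toward the variances of probesets of similar level. At a prior weight of 10 this test called 114 probesets higher (0.39% of all) and 5 lower (0.0171%), 119 in all, with Fras1 among them (adjusted p = 0.000349). The standard error of Fras1 was then 0.213, close to the 0.222 of limma. The degrees of freedom of the Bayesian test grow with the prior weight that is assumed. The study gives no prior weight and reported more probesets at the same threshold, so this reading does not reproduce its calls. With the prior weight lowered to 6 and 3, which was added after seeing the data, Fras1 had adjusted p = 0.0163 and 0.587 by the same test. Over all alternatives its adjusted p ran from 0.000349 to 0.587, and its log2 fold change from 1.43 to 1.83. Among all genes, 18 had a higher log2 fold change and 5 a smaller unadjusted p in limma. The study picked Fras1 as a candidate on these arrays, so its direction is not independent evidence.

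Grip1 behaved otherwise. Its log2 expression values were 6.40, 6.33 and 6.13 on the PEC-enriched arrays, against 6.15, 6.12 and 6.15 on the PEC-deprived arrays. The groups overlapped, because PEC-enriched replicate 3 lay among the PEC-deprived arrays. The means were 6.29 ± 0.136 in PEC-enriched isolates and 6.14 ± 0.0145 in PEC-deprived isolates (n = 3 arrays each, SD), which makes a log2 fold change of 0.15 (limma adjusted p = 0.721, standard error 0.0981). The 95% interval ran from -0.08 to 0.37, and its upper end lies below the lower end of the interval of Fras1. Without PEC-enriched replicate 3 the value was 0.22, and without PEC-enriched replicate 1 it was 0.091. Both Grip1 means lay below the array medians, which ran from 6.69 to 6.75. Detection calls were not used, so it is unknown whether this probeset rises above background, and overlap cannot be read as equal expression. Of the 2 genes measured, 1 had groups that did not overlap and was higher, where 9.68% of all genes did so.

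**Figure D1:**
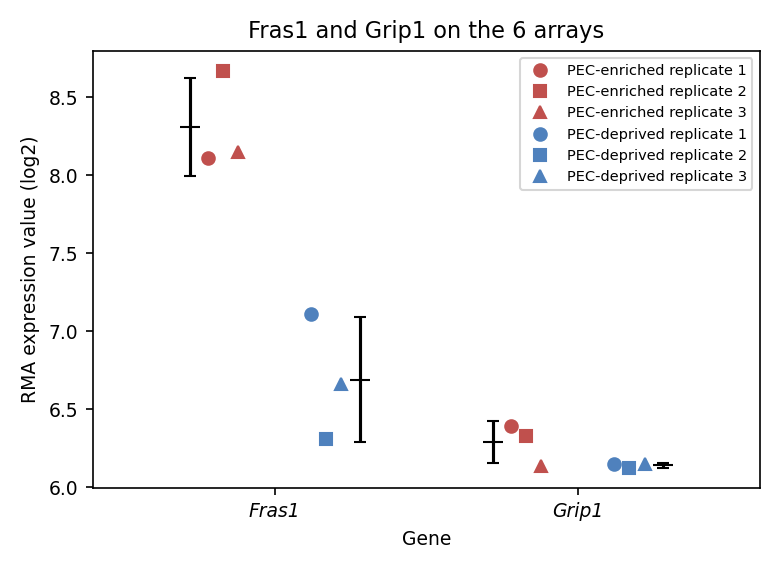
RMA log2 expression values (y axis) of Fras1 and Grip1 (x axis), each point 1 array, with the shape giving the replicate number and black marks giving the mean and SD of 3 arrays. For Fras1 no PEC-enriched array lies under 8.11 and no PEC-deprived array over 7.11, while all values of Grip1 lie between 6.12 and 6.40.

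The adaptor and the matrix protein were compared within each array. Grip1 minus Fras1 was -1.71, -2.34 and -2.02 on the PEC-enriched arrays, against -0.96, -0.19 and -0.51 on the PEC-deprived arrays. The groups did not overlap. The mean shift was -1.47 (standard error 0.288), between -2.02 ± 0.315 in PEC-enriched isolates and -0.55 ± 0.388 in PEC-deprived isolates (n = 3 arrays each, SD). By a two-sided exact permutation test p was 0.1, again the lowest the design allows. This was the only one of 4 planned pairs for which both genes were measured. The values of Grip1 spanned only 0.27 over the arrays, so the shift largely restates the Fras1 difference and is not a separate result. Because different probesets respond to their RNAs to different extents, only the shift between the isolates is meaningful, and not the level of either gene against the other.

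Over the 6 arrays the values of Fras1 spanned 2.36 on the log2 scale, and the genes most like it were sought by the root mean square difference between values centred on the mean of each gene. The closest of 14505 other genes was Clmn, an actin-binding protein of the calponin homology family, at 0.0932. It was followed by Cdh6, a cadherin of the nephron epithelium, at 0.128 and by Mfap3l, a membrane protein with immunoglobulin domains, at 0.141. These 3 genes kept the same order after cyclic loess normalization. Centred on its mean, Fras1 stood at 0.61, 1.17 and 0.65 on the PEC-enriched arrays, against -0.39, -1.19 and -0.84 on the PEC-deprived arrays. Clmn stood at 0.56, 1.22 and 0.49 on the PEC-enriched arrays, against -0.38, -1.20 and -0.70 on the PEC-deprived arrays. In both genes PEC-enriched replicate 2 was the highest array and PEC-deprived replicate 2 the lowest. This likeness is a description over 6 arrays with no test, and all 3 genes were chosen by it. Cdh6 is also on the list of parietal epithelial markers used here, as is Pax2, and Gata3 is on that of mesangial markers. The values of Grip1 spanned 0.27, which was too little for such a search.

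**Figure D2:**
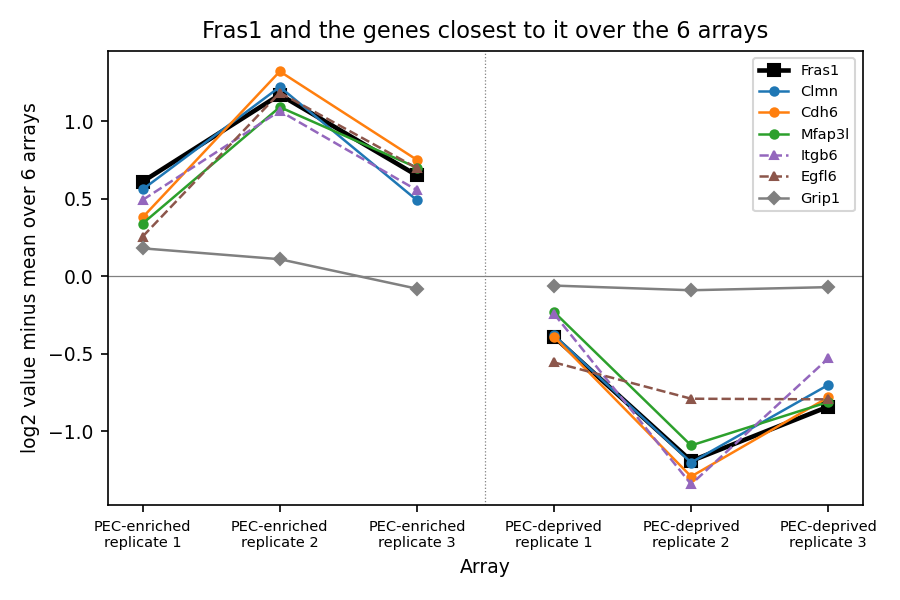
Log2 values minus the mean of each gene over the 6 arrays (y axis) for Fras1, the 3 genes closest to it, 2 partner genes (Itgb6 and Egfl6, dashed) and Grip1, by array (x axis). Lines join the arrays of a group only to make a gene easier to follow. Clmn, the closest gene, differs from Fras1 by a root mean square of 0.0932, and Grip1 stays between -0.09 and 0.18.

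RNA of several epithelia stood higher on the same arrays as Fras1. Of 11 parietal epithelial markers, 11 averaged higher in PEC-enriched isolates, and their median log2 fold change was 0.70. The same was so for 12 of 12 proximal tubule genes (median 1.04), 6 of 6 genes of the thick ascending limb (2.13) and 12 of 12 genes of the distal tubule and collecting duct (0.62). The median over all genes was -0.02, and 44.8% of genes had a higher mean. Each of these epithelial lists includes genes that the study itself had called from the same hybridizations, among them Cdh6, Miox, Umod and Calb1. The counts and medians of the epithelial lists therefore give no separate support for a direction. The parietal epithelial list, averaged over centred values, stood at 0.20, 0.66 and 0.41 on the PEC-enriched arrays, against -0.18, -0.66 and -0.44 on the PEC-deprived arrays. The proximal tubule list stood at 0.32, 0.95 and 0.23 on the PEC-enriched arrays, against 0.14, -1.14 and -0.50 on the PEC-deprived arrays. In both lists, as in Fras1, PEC-enriched replicate 2 was the highest array and PEC-deprived replicate 2 the lowest. The smooth muscle list, which is not epithelial, also had its extremes on these arrays, at 0.26 and -0.14. The thick ascending limb list stood at 1.32, 0.84 and 0.77 on the PEC-enriched arrays, against -0.20, -1.49 and -1.24 on the PEC-deprived arrays. Its highest array was PEC-enriched replicate 1 and its lowest was again PEC-deprived replicate 2. The distal tubule and collecting duct list stood at 0.55, 0.32 and 0.34 on PEC-enriched arrays, against -0.02, -0.59 and -0.60 on PEC-deprived arrays. By immunostaining the study found FRAS1 protein in proximal tubules as well as in PECs, and weakly in podocytes. The part of each epithelium in the Fras1 difference was not tested, and in bulk RNA more cells of a type and more RNA per cell cannot be told apart.

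Podocyte markers, which define the tuft that both isolates contain, differed little. Of 9 measured, 5 were higher and 4 lower on average, with log2 fold changes between -0.14 and 0.19. Endothelial markers had lower means in PEC-enriched isolates in 12 of 12 genes (median -0.46), leukocyte markers in 7 of 7 (-0.37) and mesangial markers in 6 of 8 (-0.28). Of 6 smooth muscle genes, 4 had a higher mean (median 0.12), and of 5 fibroblast genes, 2 (-0.09). Some of the endothelial and smooth muscle genes were also selected by the study on these arrays, and their directions are not independent evidence. The endothelial list averaged 0.11, -0.40 and -0.39 on the PEC-enriched arrays, against 0.18, 0.26 and 0.25 on the PEC-deprived arrays, so that PEC-enriched replicate 1 lay nearest to the PEC-deprived arrays.

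**Figure D3:**
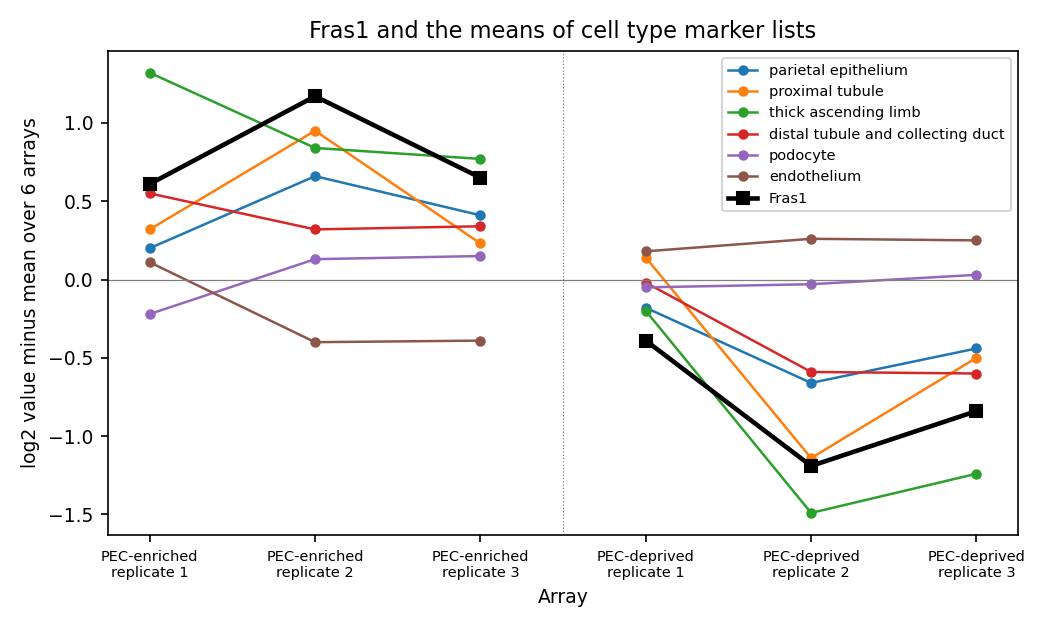
Log2 values minus the mean over 6 arrays (y axis) of Fras1 and, averaged over genes, of 6 marker lists, by array (x axis). Lines join the arrays of a group only to make a list easier to follow. Fras1 runs from 1.17 on PEC-enriched replicate 2 to -1.19 on PEC-deprived replicate 2, as the parietal epithelial and proximal tubule lists also have their extremes on these arrays, and the podocyte list stays between -0.22 and 0.15.

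Genes that work with the Fraser complex or downstream of nephronectin were taken from 5 lists of 34 genes, of which 24 were measured. In limma 0 of the 24 passed an adjusted p under 0.01, as did 0% of all probesets. At an unadjusted limma p under 0.05, 7 were higher and 2 lower (7.96% and 5.65% of all genes). The methods' Bayesian test called 3, all higher (Spp1, Egfl6 and Itgb6), where it called 0.39% of all probesets higher. All 3 calls need the prior weight of 10, being lost with weights of 6 and 3. The groups did not overlap in 9 genes that were higher (9.68% of all genes) and 2 that were lower (9% of all genes). The median log2 fold change over the 24 was 0.09. Egfl6, Itgb6 and Pax2 were also selected by the study on these arrays, and their directions carry no independent evidence.

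Of the relatives of the complex and the other cargo of GRIP1, 4 of 6 genes were measured, and their median log2 fold change was 0.13. Grip2, the paralog of Grip1, had values of 6.39, 6.18 and 6.50 in PEC-enriched isolates, against 6.55, 6.20 and 6.43 in PEC-deprived isolates, which overlapped (log2 fold change -0.03, 95% interval -0.32 to 0.26). Cspg4, the NG2 proteoglycan of pericytes and mesangial cells, shares its repeats with FRAS1 and binds GRIP1. It also overlapped (-0.04, 95% interval -0.47 to 0.38). The values of both genes changed sign when single arrays were left out. Ephb2, a receptor for ephrin-B ligands, had values of 6.52, 6.93 and 6.60 in PEC-enriched isolates, against 6.29, 6.11 and 6.11 in PEC-deprived isolates. The groups did not overlap, with a log2 fold change of 0.51 (limma adjusted p = 0.225, standard error 0.127). Efnb1, an ephrin-B ligand, was also without overlap, but by only 0.02 (0.30, limma adjusted p = 0.524), and it stood at 0.15 without PEC-enriched replicate 2.

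The ligands of integrin alpha8 beta1 differed among themselves. Egfl6, the closest relative of nephronectin and itself an RGD ligand, had values of 8.17, 9.10 and 8.62 in PEC-enriched isolates, against 7.36, 7.13 and 7.13 in PEC-deprived isolates. All PEC-enriched arrays were higher, with a log2 fold change of 1.42 or 2.68-fold (limma adjusted p = 0.152, standard error 0.212), close in size to that of Fras1. Its likeness to Fras1 ranked 24 among 14505 genes (root mean square difference 0.23). Spp1, or osteopontin, a secreted phosphoprotein of tubular epithelium with an RGD motif, had values of 10.93, 11.89 and 11.63 in PEC-enriched isolates, against 10.003, 8.34 and 8.51 in PEC-deprived isolates. Its log2 fold change of 2.53 (limma adjusted p = 0.159, standard error 0.431) was exceeded by 2 genes of all measured, and PEC-deprived replicate 1 was the nearest of the PEC-deprived arrays to the other group.

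The remaining ligands and the partner chain overlapped between the isolates. Fn1, fibronectin, had values of 11.12, 10.07 and 10.18 in PEC-enriched isolates, against 10.71, 10.58 and 10.80 in PEC-deprived isolates, so that PEC-enriched replicate 1 was the highest array and the other two the lowest. Its log2 fold change was -0.24 (95% interval -0.82 to 0.34) and ran from -0.57 to -0.048 without single arrays. Vtn, vitronectin, stood at 0.04 (95% interval -0.19 to 0.26) and Itgb1, the beta1 chain with which alpha8 pairs, at 0.13 (-0.09 to 0.34). Over the 5 measured genes the median was 0.13.

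Other integrin chains that bind RGD ligands were measured in 5 of 7 cases. Itgb6, the epithelial beta6 chain that joins alphaV to activate latent TGF-beta, had values of 7.64, 8.22 and 7.71 in PEC-enriched isolates, against 6.91, 5.81 and 6.62 in PEC-deprived isolates. The groups did not overlap, with a log2 fold change of 1.41 or 2.65-fold (limma adjusted p = 0.166, standard error 0.276). In likeness to Fras1 it ranked 7 of 14505 genes (root mean square difference 0.171), the closest of the 24 partner genes. Itgb8, another beta chain that joins alphaV, had a log2 fold change of 0.56 (limma adjusted p = 0.427, standard error 0.223), with a gap of 0.03 between the groups, and stood at 0.31 without PEC-enriched replicate 2.

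In the same list Itga5 and Itgb3 had lower values in PEC-enriched isolates, and neither passed in limma, where no probeset did. Itga5, the alpha chain of the classical fibronectin receptor, had values of 8.71, 8.50 and 8.47 in PEC-enriched isolates, against 8.86, 9.01 and 9.05 in PEC-deprived isolates, all lower in PEC-enriched isolates. Its log2 fold change was -0.41 (limma adjusted p = 0.231, standard error 0.105). Itgb3, the beta3 chain, was lower by a log2 fold change of -0.63 (limma adjusted p = 0.334, standard error 0.206), with PEC-enriched replicate 1 at 8.25 only 0.02 below the nearest PEC-deprived array. That array was also nearest to the PEC-deprived arrays in the endothelial markers, which were lower as a list, and their part in these differences was not tested. Itgb5 overlapped, at 0.12 (95% interval -0.24 to 0.49).

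No gene of the GDNF pathway, on which nephronectin acts in the embryo, passed in limma, where 0% of all probesets did. Of 6 measured genes, 3 were higher and 3 lower on average. The median log2 fold change was -0.05, and without single arrays it lay between -0.15 (PEC-enriched replicate 1) and 0.048 (PEC-enriched replicate 2), with its sign turned also without PEC-deprived replicate 1 (0.028). Gdnf, the ligand, had values of 6.40, 6.03 and 6.73 in PEC-enriched isolates, against 6.34, 6.16 and 6.34 in PEC-deprived isolates, which overlapped (0.11, 95% interval -0.28 to 0.50). Ret, its signalling receptor, had values of 5.49, 5.26 and 5.45 in PEC-enriched isolates, against 5.59, 5.41 and 5.62 in PEC-deprived isolates, with overlap as well (-0.14, 95% interval -0.38 to 0.10). Gfra1, the co-receptor, was the only gene of the list without overlap, by a margin that vanishes at 2 decimals (0.21, limma adjusted p = 0.548, standard error 0.1). The ETS factors Etv4 and Etv5, which RET signalling induces, stood at -0.10 (95% interval -0.36 to 0.15) and -0.35 (-0.72 to 0.02), the second of them at -0.51 without PEC-enriched replicate 1. Spry1, which restrains RET signalling, stood at 0.01 (-0.43 to 0.45). Detection calls were not used here, so it is unknown whether the probesets of this list rise above background.

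Of the transcription factors that act upstream of Gdnf or of the nephric duct, 4 of 8 were measured, and their median log2 fold change was 0.25, or 0.12 without PEC-deprived replicate 2 and 0.16 without PEC-enriched replicate 2. Pax2, the paired box factor that activates Gdnf and marks the parietal epithelium, had values of 7.46, 7.71 and 7.48 in PEC-enriched isolates, against 7.10, 6.77 and 6.67 in PEC-deprived isolates. The groups did not overlap (0.70, limma adjusted p = 0.166, standard error 0.135). Sall1, a zinc finger factor of the nephron progenitors, was also without overlap (0.43, limma adjusted p = 0.327, standard error 0.138). Hoxa11 overlapped, at 0.07 (95% interval -0.34 to 0.48). Gata3, a factor of the collecting duct lineage and of mesangial cells, had values of 10.95, 9.23 and 9.55 in PEC-enriched isolates, against 10.55, 10.58 and 10.52 in PEC-deprived isolates. Its PEC-enriched arrays lay on both sides of the PEC-deprived arrays, and its log2 fold change of -0.64 (95% interval -1.51 to 0.23) ran from -1.16 to -0.30 without single arrays.

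**Figure D4:**
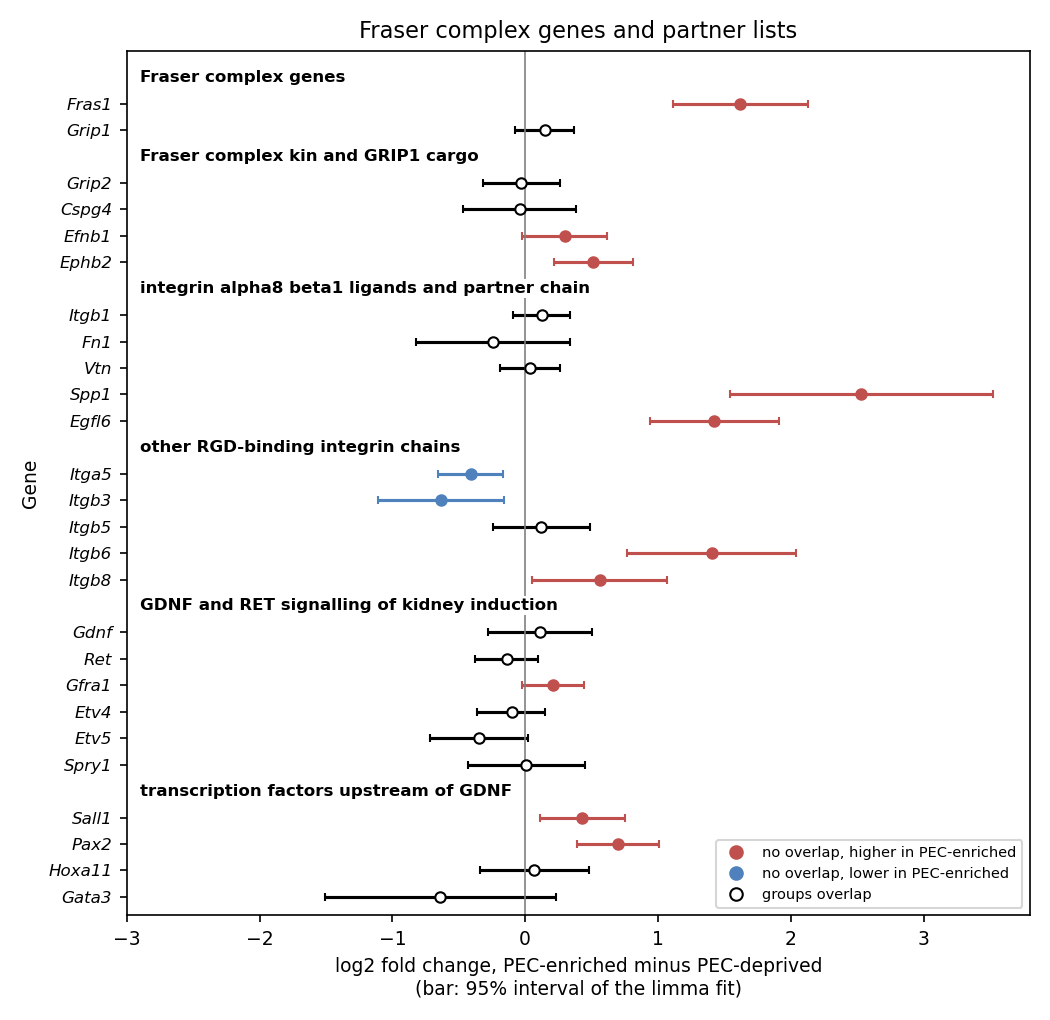
Log2 fold changes, PEC-enriched minus PEC-deprived (x axis), of Fras1, Grip1 and the 24 partner genes (y axis), with 95% intervals of the limma fit on 3 arrays a group. Filled points mark genes whose groups did not overlap, red where higher and blue where lower in PEC-enriched isolates. Spp1 (2.53), Fras1 (1.62), Egfl6 (1.42) and Itgb6 (1.41) have the highest values, while Grip1 stands at 0.15 and the genes of the GDNF list between -0.35 and 0.21.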

How the data were processed

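The authors processed the arrays with RMA, named in the methods and the submitters' processing notes, which adjusts the background, quantile normalizes and summarizes probes into probesets. The software version is not given in the sources used here, nor is the probeset definition. The deposited table holds 1 log2 value for each probeset on each array. The labels give no base for these values, and the gene lists of the study are headed log2. The values reach 13.87, above 11.09, the natural log of the limit of a 16-bit scanner, and were read as base 2. Array medians lay between 6.69 and 6.75, and correlations between arrays between 0.9816 and 0.9937, with no arrays identical. The number of arrays limits the precision. The limma and Bayesian p-values set a difference against the spread between these arrays, shrunk toward that of other probesets.

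All 29215 probesets were tested two-sided by lmFit and eBayes of limma 3.58.1 (R 4.3.3; Benjamini-Hochberg adjustment, threshold 0.01), PEC-enriched minus PEC-deprived. Names came from the platform annotation, in which 15310 probesets have 1 symbol, 323 several and 13582 none, checked by Entrez ID against RefSeq (GRCr8), which also gave the promoters. No column was left out. The exact permutation test was run with scipy 1.17.1, and figures with matplotlib 3.10.9. Named were Fras1 and Grip1, all measured partner genes, and for a gene spanning at least 1 (log2) its 3 nearest genes. Marker lists are given as counts and medians and, for some lists, as means of centred values on each array. The genes and lists were chosen with earlier results of these data known. Alternatives were the replicate number as a block, the methods' Bayesian test (window 101, prior weight 10), an intensity trend, filters, 2 other normalizations, a threshold of 0.05 and each array left out.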

Additional observations from a re-analysis of the deposited data

How the results depend on the processing

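Fras1 kept its direction under all 15 alternatives tried, with a log2 fold change between 1.43 and 1.83, and passed an adjusted p under 0.01 only by the methods' Bayesian test at a prior weight of 10 (1.62, adjusted p = 0.000349). The Grip1 value ran from 0.091 to 0.22 over 14 alternatives and the shift of Grip1 minus Fras1 from -1.68 to -1.29. Grip1 has no value over probesets above the median level, and averaging the probesets of a gene could not be run because both genes have 1. The count of probesets past the threshold was 0 in the limma fit on all arrays, 119 by the methods' Bayesian test, 1 at its prior weight of 6 (added after seeing the data), and between 0 and 1 without single arrays, with 1 only without PEC-deprived replicate 1. The deviations of same-numbered arrays from their group means had correlations of -0.03, 0.05 and 0.10 for replicates 1 to 3, and whether the number marks an animal is not known, so the arrays were not treated as pairs. With the replicate block the count was 0, Fras1 had 1.62 (adjusted p = 0.295) and Grip1 0.15 (adjusted p = 0.674).

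Among the partner genes, values near 0 changed sign without single arrays, where Grip2 ran from -0.13 to 0.057, Cspg4 from -0.18 to 0.16, Vtn from -0.026 to 0.091, Gdnf from -0.066 to 0.29, Spry1 from -0.18 to 0.16 and Hoxa11 from -0.16 to 0.19. Spry1 was -0.0026 with median centring. The median of the alpha8 beta1 list was 0.78 over probesets above the median level, with 4 genes left, and ran from 0.076 to 0.17 without single arrays. That of the GRIP1 cargo list ran from 0.10 to 0.24, highest without PEC-enriched replicate 3, and that of the other RGD-binding chains from 0.037 to 0.29, highest without PEC-enriched replicate 1. The median of the GDNF list ran from -0.15 to 0.048 without single arrays, and that of the upstream factors from 0.12 to 0.34, with 0.43 over probesets above the median level. Without PEC-enriched replicate 2, Itgb1 stood at 0.076, Itgb5 at 0.037, Ret at -0.071 and Etv4 at -0.01. Signal over background is unknown. The causes were not tested.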
